A study of Mus musculus with 6 samples.

Results

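To follow the calcineurin-NFAT pathway through osteoclast differentiation, the RNA levels of 8 genes were examined: the NFAT transcription factors Nfatc1, Nfatc2, Nfatc3 and Nfat5, the calcineurin subunits Ppp3ca, Ppp3cb and Ppp3r1, and the calcineurin regulator Rcan1. They were chosen by gene symbol from the 24940 genes of the deposited expression table, and all 8 were among the 11595 genes tested. Bone marrow-derived macrophages (BMMs) of mice, which serve as osteoclast precursors, had been cultured for 3 days under 3 conditions, with 2 sequenced libraries each. All cultures were given 30 ng/mL M-CSF, a growth factor that keeps these cells alive. The -R cultures received nothing else, the +R cultures also received RANKL at 100 ng/mL, the cytokine that drives osteoclast formation, and the R+LE cultures received the same RANKL and LE at 10 μg/mL, an extract from leaves of Abeliophyllum distichum. The sample labels name C57BL/6 mice aged 6 to 8 weeks, whereas the study's methods name ICR mice. Whether the libraries of a group came from separate mice or cultures, and whether cultures without LE received its solvent, is not given in the sources used here, so p-values measure only the spread between these libraries, which may be technical.

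Calcineurin is a phosphatase that is switched on by calcium and calmodulin, and it is made of a catalytic A subunit, encoded by Ppp3ca, Ppp3cb or Ppp3cc, and a calcium-binding B subunit, encoded by Ppp3r1 in most tissues. It removes phosphate from NFAT proteins in the cytoplasm, which lets them enter the nucleus and bind DNA, often side by side with the AP-1 factors. In osteoclast precursors RANKL sets off calcium oscillations, NFATc1 binds its own promoter, and NFATc1 is known as the master regulator of osteoclast genes. Nfat5 is the member of the family that does not need calcineurin and is known for the response to osmotic stress. Rcan1 binds calcineurin and restrains it, and its shorter isoform is itself switched on by NFAT. All of this regulation acts on proteins as well as RNA, and only RNA was measured here.

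Levels are given as RPKM, which scales the reads on a gene to the length of its transcript and to the mapped reads of the library. The whole reads behind them could be recovered and put the depth at 29390201 to 34846384 mapped reads per library. Changes are differences of mean log2(RPKM + 0.5), tested with limma across all tested genes, and a gene passed the test at an adjusted p below 0.05. Macrophage markers were high in every library, and their summed level was 1395 and 1501 RPKM in -R libraries, 913 and 802 in +R libraries, and 876 and 721 in R+LE. Of the 5 macrophage markers, 4 were lower in +R than in -R past the test, where 21.5% of all tested genes were lower. Markers of T cells, which are rich in Nfatc2, summed to 0.152 to 0.332 RPKM with Cd3e at 0 in all 6 libraries, and the 5 mast cell markers had no read in any library. Summed B cell markers were 1.96 and 1.57 RPKM in -R and 0.048 to 0.124 elsewhere, and summed neutrophil markers were 17.0 and 15.5 in -R and 0.592 to 2.46 elsewhere. Summed endothelial markers were 2.29 and 2.39 RPKM in -R libraries, 1.99 and 2.09 in +R libraries, and 0.717 and 0.65 in R+LE libraries, with Emcn at 0 in all libraries. Most of this sum was Kdr, the 1 tested, whose means were 1.28 RPKM for -R, 1.92 for +R and 0.551 for R+LE. Kdr was lower in R+LE than in +R by a log2 change of -1.20 (limma adjusted p = 0.000473). Cdh5 and Pecam1, below the filter and not tested, went the other way from Kdr with RANKL. Their means were 0.643 and 0.42 RPKM for -R and 0.098 and 0.02 for +R. With LE added to RANKL, Cdh5 was at 0.13 RPKM and Pecam1 at 0. Summed stromal markers were 16.7 and 14.8 RPKM in -R libraries, 10.9 and 15.0 in +R libraries, and 7.96 and 8.90 in R+LE libraries. Of the 3 tested, 2 fell with LE, Col1a2 and Col3a1, by log2 changes of -0.53 and -0.76 (limma adjusted p = 0.0312 and 0.0133). Between R+LE and +R, 6.86% of all tested genes were lower. The part of these shifts in the results was not tested, and in bulk cultures fewer cells of a type and less RNA per cell cannot be told apart.

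RANKL raised Nfatc1, Nfat5, Rcan1 and Ppp3cb, and no member fell past the test. These 4 of 8 members compare with 23.9% of all tested genes that were higher in +R than in -R and 21.5% that were lower. The change reached 2-fold in 3 of the 8, against 15.5% of all tested genes with a 2-fold change in either direction. The median log2 change over the 8 members was 0.33, and 0.05 over all tested genes. When LE was added to RANKL, Nfatc1 and Rcan1 fell and Nfatc2 rose. Between R+LE and +R, 6.86% of tested genes were lower and 5.19% higher, and 3.23% changed 2-fold, as did 2 of the 8 members. R+LE cultures still held more Nfatc1 and Nfat5 than -R cultures, each by at least 2-fold, while 15.3% of tested genes were higher in that comparison, 19% were lower and 10.3% had a 2-fold change. The medians over the members were -0.16 for R+LE against +R and 0.15 for R+LE against -R, and over all tested genes -0.05 and -0.01. The 3 comparisons use the same 6 libraries in pairs of groups, so they are not independent of each other.

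**Figure D1:**
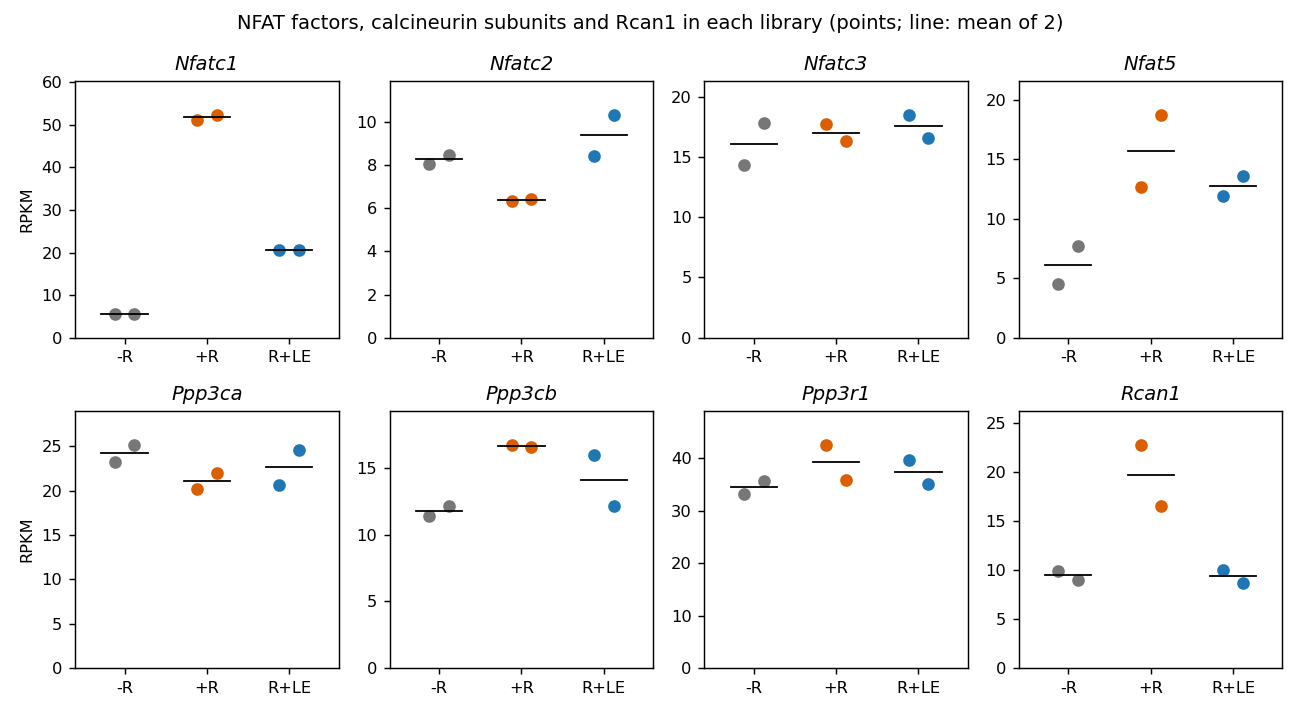
RPKM of each of the 8 genes (vertical axes, each starting at 0) in the -R, +R and R+LE cultures, with a point for each library and a line at the mean of the 2 libraries. Nfatc1 libraries sit near 5.6 in -R libraries, near 52 in +R and near 21 in R+LE without overlap, whereas the points of Nfatc3 overlap between all conditions.

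Nfatc1, at chr18:80647435-80713071 of mm10 on the minus strand, was at 5.60 and 5.62 RPKM in the -R libraries, at 51.1 and 52.4 in the +R libraries and at 20.7 and 20.6 in the R+LE libraries. The 3 groups were far apart, and libraries of a group nearly coincided. These levels rest on 788 and 938 reads in -R libraries, 7511 and 7701 in +R libraries, and 3122 and 2996 in R+LE. The mean rose from 5.61 ± 0.0156 (SD, n = 2) to 51.8 ± 0.907 RPKM with RANKL, a log2 change of 3.10 (SE 0.132, limma adjusted p = 7.94e-11). With LE it was 20.6 ± 0.0757 RPKM, a log2 change of -1.31 against +R (95% interval -1.59 to -1.03, adjusted p = 9.43e-06). R+LE stayed above -R by 1.79 on the log2 scale (95% interval 1.51 to 2.07, adjusted p = 5.8e-08). LE thus removed 42.2% of the RANKL-dependent rise when measured on the log2 scale and 67.5% on the RPKM scale. All 3 calls passed in each of the 16 alternative settings. The counted transcript has 8 exons, and 5 of the 7 annotated Nfatc1 transcripts end more than 1 kb further downstream, so reads on those later exons did not enter the count and the isoforms cannot be told apart.

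Nfatc2, the NFAT factor best known from T cells, lies at chr2:168476410-168590365 on the minus strand. Its levels were 8.06 and 8.48 RPKM in -R libraries, 6.34 and 6.42 in +R libraries, and 8.44 and 10.3 in R+LE. Every +R library was below every other library, and the R+LE libraries differed from each other more than the other pairs did. With LE the level rose by 0.52 on the log2 scale against +R (95% interval 0.21 to 0.82, limma adjusted p = 0.0266), from 6.38 ± 0.0622 to 9.39 ± 1.34 RPKM (SD, n = 2). This call was close to the threshold. It was lost without R+LE replicate 2, where the change was 0.38 (adjusted p = 0.175), without either -R replicate or either +R replicate (adjusted p = 0.0568 to 0.109), in a fit of the compared groups only (0.0584) and with no filter (0.106). The difference between +R and -R, a log2 change of -0.35, did not pass the test (95% interval -0.65 to -0.05, adjusted p = 0.0568), though it passed in 5 of 16 alternative settings. R+LE and -R differed by 0.17 (95% interval -0.14 to 0.47, adjusted p = 0.397).

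Nfatc3, at chr8:106059603-106130537 on the plus strand, was at 14.3 and 17.8 RPKM in -R libraries, 17.8 and 16.3 in +R libraries, and 18.5 and 16.6 in R+LE. The libraries of all 3 groups overlapped. Its log2 changes were 0.09 for +R against -R (95% interval -0.22 to 0.40), 0.04 for R+LE against +R (-0.27 to 0.36) and 0.13 for R+LE against -R (-0.18 to 0.44), with limma adjusted p of 0.649, 0.919 and 0.529. A 2-fold change, 1 on the log2 scale, lies outside each of these intervals. Nfatc3 exons share 219 bases with Esrp2 on the opposite strand, and counting ignored strand.

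Nfat5, at chr8:107293470-107379517 on the plus strand, was at 4.54 and 7.76 RPKM in -R libraries, 12.7 and 18.8 in +R libraries, and 11.9 and 13.6 in R+LE. Both -R libraries were below all others, and the +R and R+LE libraries overlapped. With RANKL the mean rose from 6.15 ± 2.27 to 15.7 ± 4.31 RPKM (SD, n = 2), a log2 change of 1.30 (SE 0.213, limma adjusted p = 0.000138). The libraries of this gene spread widely: replicates differed by 0.711 on the log2 scale in -R and by 0.548 in +R, where 90% of all tested genes differed by less than 0.371 and 0.369. Between R+LE and +R the change was -0.27 (95% interval -0.73 to 0.18, adjusted p = 0.52). Against -R, the R+LE libraries were higher by 1.03 (95% interval 0.58 to 1.49, adjusted p = 0.0015). Without -R replicate 1 this last change was 0.68 and lost the call (adjusted p = 0.064), as it did with no filter on low values (0.069), while the rise with RANKL was 0.95 without that library and still passed.

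**Figure D2:**
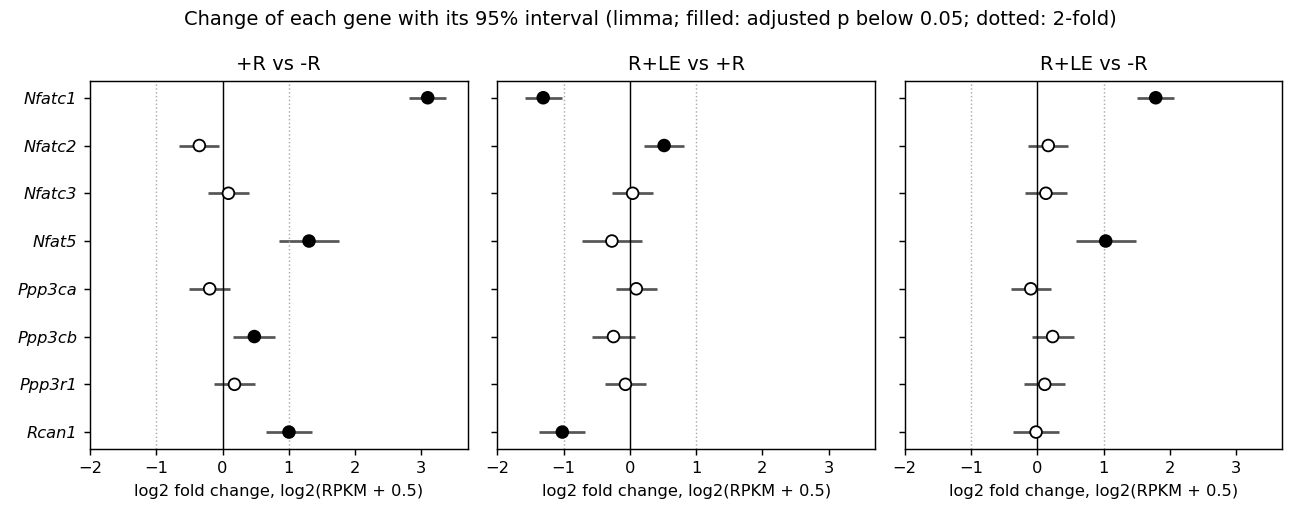
Log2 fold change of each gene on the log2(RPKM + 0.5) scale (horizontal axes) for RANKL alone, LE added to RANKL and both together against -R (panels from left to right), with bars for the 95% interval, filled points for a limma adjusted p below 0.05 and dotted lines at 2-fold. Nfatc1 lies beyond the 2-fold line in every panel, at 3.10, -1.31 and 1.79, and Rcan1 lies on it in the first 2, at 1.0 and -1.02.

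Since RPKM is per length of transcript, the 4 NFAT genes could also be set beside each other. Each gene was counted on 1 transcript, so these shares and ratios may depend on which isoforms were expressed. In -R, Nfatc3 was the most abundant, with 44.0% and 44.9% of their summed RPKM, and Nfatc1 held 17.2% and 14.2%. In +R, Nfatc1 held 58.2% and 55.8% of the sum, and Nfatc2 was the least abundant with 7.21% and 6.84%. In R+LE, Nfatc1 remained the most abundant with 34.7% and 33.7%, ahead of Nfatc3 with 31.1% and 27.1%. The sum itself was 32.5 and 39.6 RPKM in -R libraries, 87.9 and 93.9 in +R libraries, and 59.5 and 61.0 in R+LE. The ratio of Nfatc1 to Nfatc2 RPKM was 0.695 and 0.663 in -R libraries, 8.07 and 8.16 in +R libraries, and 2.45 and 1.99 in R+LE. These ratios of levels combine the changes of both genes. That of Nfatc2 did not pass the test for +R against -R (log2 change -0.35, limma adjusted p = 0.0568), and its rise with LE was close to the threshold.

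**Figure D3:**
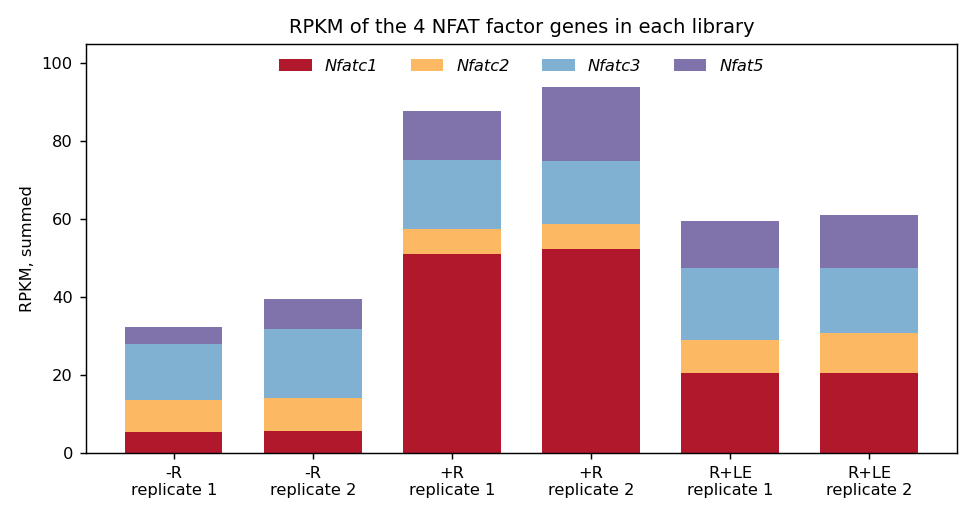
Summed RPKM of the 4 NFAT factor genes (vertical axis from 0) in each of the 6 libraries, stacked by gene. The Nfatc1 segment is 58.2% and 55.8% of the bar in +R and 34.7% and 33.7% in R+LE, and the Nfatc3 segment is the tallest in both -R libraries.

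Of the 3 calcineurin subunits, 1 passed the test, Ppp3cb, and only for +R against -R. In that comparison 23.9% of all tested genes were higher and 21.5% lower. Ppp3ca, the first of the catalytic subunits, lies at chr3:136670066-136937727 and was at 23.2 and 25.2 RPKM in -R libraries, 20.2 and 22.0 in +R libraries, and 20.7 and 24.6 in R+LE. No comparison passed the test for it, with log2 changes of -0.19 for RANKL alone (95% interval -0.50 to 0.11), 0.10 for LE added to RANKL (-0.21 to 0.40) and -0.10 for both together against -R (-0.40 to 0.21). Ppp3r1, the regulatory subunit at chr11:17159298-17200380, was at 33.2 and 35.7 RPKM in -R libraries, 42.6 and 35.9 in +R libraries, and 39.6 and 35.1 in R+LE. Its log2 changes, in the same order, were 0.18 (95% interval -0.13 to 0.49), -0.07 (-0.38 to 0.25) and 0.11 (-0.20 to 0.43), and none passed, although quantile normalization brought the first past the threshold (adjusted p = 0.0458). Of its exon bases, 462 are shared with Wdr92 on the same strand. For both subunits a 2-fold change lies outside all of these intervals.

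Ppp3cb, the second catalytic subunit, at chr14:20499364-20546573, was the subunit that passed the test. It was at 11.4 and 12.2 RPKM in -R libraries, 16.8 and 16.6 in +R libraries, and 16.0 and 12.2 in R+LE. The +R libraries lay above all others, and the R+LE libraries lay apart, the first near +R and the second within the range of -R. RANKL raised it by 0.48 on the log2 scale (SE 0.149, limma adjusted p = 0.016), from 11.8 ± 0.525 to 16.7 ± 0.135 RPKM (SD, n = 2). The call was lost without -R replicate 1 (adjusted p = 0.118), -R replicate 2 (0.0633) or +R replicate 1 (0.0589), and with no filter (0.0582). R+LE did not differ past the test from +R (-0.25, 95% interval -0.57 to 0.07) or from -R (0.23, -0.09 to 0.55). Without R+LE replicate 2 the latter was 0.42 and passed (adjusted p = 0.0385). The ratio of Ppp3ca to Ppp3cb levels was 2.03 and 2.07 in -R libraries, 1.21 and 1.33 in +R libraries, and 1.29 and 2.02 in R+LE.

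Rcan1, the feedback inhibitor of calcineurin, lies at chr16:92391951-92400078 on the minus strand. Its levels were 9.92 and 8.97 RPKM in -R libraries, 22.8 and 16.5 in +R libraries, and 10.0 and 8.66 in R+LE. Both +R libraries stood above the other 4, and the R+LE libraries overlapped the -R libraries. RANKL raised it by 1.0 on the log2 scale (SE 0.161, limma adjusted p = 0.00012), from 9.44 ± 0.672 to 19.6 ± 4.44 RPKM (SD, n = 2). LE lowered it, with a log2 change of -1.02 against +R (95% interval -1.36 to -0.68, adjusted p = 0.000573). With no filter on low values, this fall was only just past the threshold (limma adjusted p = 0.0498). R+LE, at 9.34 ± 0.960 RPKM, differed from -R by -0.02 (95% interval -0.36 to 0.33, adjusted p = 0.948). Of the rise with RANKL, 102% was removed on the log2 scale, and 91.8% and 112% when each R+LE library was taken alone. The same share for Nfatc1 was 42.2%, and the difference between the shares was not tested. Both calls passed in all 16 alternative settings, but the gene sits at the 2-fold line and reached it in 13 and 11 of them.

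The table of RefSeq promoters held 6 of the 8 members, without Nfatc1 and Ppp3ca. Promoters of the other members that rose with RANKL are given here for the letters known to bind NFAT and AP-1. Each covers 250 bases before to 50 bases after a transcript start, read from 5′ to 3′ on the strand of the gene, in GRCm38.p6, the assembly of mm10. Capitals mark GGAAA or its reverse complement TTTCC, the core that NFAT proteins bind, and TGANTCA, the AP-1 site, which reads the same on both strands. No marked stretches overlap. The first Rcan1 promoter is that of the counted transcript, chr16:92400029-92400328, and the second, at chr16:92466120-92466419, belongs to the far start 66091 bases upstream. The Nfat5 promoter is chr8:107293220-107293519 and the Ppp3cb promoter chr14:20546524-20546823, both at the start of the counted transcript.
Rcan1, start of the counted transcript: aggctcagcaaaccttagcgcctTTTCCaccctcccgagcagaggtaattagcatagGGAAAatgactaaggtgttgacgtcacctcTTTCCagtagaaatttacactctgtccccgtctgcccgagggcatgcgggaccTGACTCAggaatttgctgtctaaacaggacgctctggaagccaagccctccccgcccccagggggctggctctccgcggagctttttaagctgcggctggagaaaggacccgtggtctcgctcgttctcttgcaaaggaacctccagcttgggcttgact
Rcan1, far start: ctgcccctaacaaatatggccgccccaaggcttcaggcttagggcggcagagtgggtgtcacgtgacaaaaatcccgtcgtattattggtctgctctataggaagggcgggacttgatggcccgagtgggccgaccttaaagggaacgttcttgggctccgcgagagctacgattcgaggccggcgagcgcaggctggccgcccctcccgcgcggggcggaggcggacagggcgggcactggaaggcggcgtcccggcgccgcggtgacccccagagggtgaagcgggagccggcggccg
Nfat5: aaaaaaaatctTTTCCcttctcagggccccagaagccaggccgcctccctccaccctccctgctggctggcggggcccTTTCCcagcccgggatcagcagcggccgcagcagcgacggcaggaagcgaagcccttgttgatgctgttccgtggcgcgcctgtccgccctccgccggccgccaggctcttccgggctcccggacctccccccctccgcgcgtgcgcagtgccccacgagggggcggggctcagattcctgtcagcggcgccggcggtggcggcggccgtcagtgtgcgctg
Ppp3cb: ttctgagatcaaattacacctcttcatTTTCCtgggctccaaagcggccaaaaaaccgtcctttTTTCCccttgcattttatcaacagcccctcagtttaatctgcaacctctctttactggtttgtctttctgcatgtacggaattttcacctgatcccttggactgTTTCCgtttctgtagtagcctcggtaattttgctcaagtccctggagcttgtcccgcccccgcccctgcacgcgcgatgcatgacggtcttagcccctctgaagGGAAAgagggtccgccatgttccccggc

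The promoter of the counted Rcan1 transcript holds 3 GGAAA cores and 1 TGANTCA. At least 3 cores were found in 9.42% of 32851 mouse promoters of the same length, TGANTCA in 7.81%, and both together in 0.837%. The far Rcan1 promoter holds neither motif. Nfat5 has 2 cores and Ppp3cb has 4, counts that 26.7% and 2.65% of promoters reach or exceed, and neither has TGANTCA. The start of the counted Nfatc2 transcript has 1 core and its other start 3, the Nfatc3 starts have 1 and 0, and Ppp3r1 has 0. At least 1 core is found in 61.3% of all promoters. These are matches of letters only, and no binding was measured. Of the 2190 exon bases of the counted Rcan1 transcript, 2008 are shared with coding transcripts from the far start, so the RPKM of Rcan1 does not say which promoter was used.

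Ranked by level within each condition, Ppp3r1 came first in -R with a mean of 34.5 RPKM, followed by Ppp3ca with 24.2 and Nfatc3 with 16.1. Nfatc1 came last there with 5.61, although its libraries lay within the range of Nfat5. In +R, Nfatc1 came first with 51.8 RPKM, above Ppp3r1 with 39.2. The neighbours from Ppp3ca at 21.1 through Rcan1, Nfatc3 and Ppp3cb to Nfat5 at 15.7 overlapped with each other in turn, and Nfatc2 was last with 6.38. In R+LE, the order was again led by Ppp3r1 and Ppp3ca, with 37.3 and 22.7 RPKM, with Nfatc1 next at 20.6. The last places went to Nfatc2 and Rcan1, whose libraries overlapped.

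Of the 5 other genes of these families, 3 were expressed enough to be tested. Rcan2, a relative of Rcan1 that also binds calcineurin, was at 0.022 and 0.093 RPKM in -R libraries, 2.14 and 1.25 in +R libraries, and 0.634 and 0.646 in R+LE, from 2 to 204 reads. It rose with RANKL (log2 change 1.95, limma adjusted p = 9.24e-06), fell with LE (-0.92, adjusted p = 0.0208) and stayed above -R (1.03, adjusted p = 0.00375). At such low levels the size depends on the scale: the rise with RANKL was 1.33 with a pseudocount of 1, 3.50 with a pseudocount of 0.1 and 4.95 by voom on recovered reads, and the difference of R+LE from -R was 0.63, 2.27 and 3.60 in the same settings, all past the test. Its fall with LE was -0.62 without +R replicate 1 (adjusted p = 0.291) and also lost the call without either R+LE replicate (0.0564 and 0.0652), with a pseudocount of 0.1 (0.0853) and with no filter (0.101). Rcan2 was not tested at a minimum of 1 RPKM. Rcan3, with means of 6.73, 5.30 and 5.51 RPKM in the -R, +R and R+LE cultures, and the catalytic subunit Ppp3cc, with 3.84, 3.13 and 3.54, passed in no comparison. Rcan3 was past the threshold for +R against -R with median centring (-0.32, adjusted p = 0.048) and quantile normalization (-0.33, 0.0405). Nfatc4 was at 0.058 to 0.182 RPKM, and Ppp3r2, the B subunit of testis, had 0 reads in every library, where 3 reads on a transcript of 1 kb would be 0.0861 to 0.102 RPKM.

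Among 8 kinases that phosphorylate NFAT and so oppose calcineurin, all were tested, and 1 rose and 2 fell with RANKL, where 23.9% of all tested genes were higher and 21.5% lower. Their median log2 change was -0.17 with RANKL and -0.02 for R+LE against +R, against 0.05 and -0.05 over all tested genes. Dyrk2, which phosphorylates NFAT ahead of other kinases, rose from 5.63 to 10.1 RPKM (log2 change 0.78, limma adjusted p = 0.000979). In R+LE it was at 6.00 RPKM, a fall of 0.70 against +R (adjusted p = 0.00845) that was lost without +R replicate 2 (adjusted p = 0.0655), without R+LE replicate 1 (0.0601) and with no filter (0.113). Gsk3b, the kinase that drives NFAT out of the nucleus, fell with RANKL from 14.5 to 9.64 RPKM (log2 change -0.57, adjusted p = 0.00362). Csnk1e fell from 8.67 to 4.98 RPKM (log2 change -0.74, adjusted p = 0.000545). Both were still below -R in R+LE, with log2 changes of -0.43 and -0.60, and neither differed past the test between R+LE and +R. The fall of Gsk3b with RANKL was lost without +R replicate 2 (adjusted p = 0.0507), and its difference between R+LE and -R without either -R replicate or R+LE replicate 1 (0.0815 to 0.147) and with no filter (0.0544). The other 5, Gsk3a, Dyrk1a, Dyrk1b, Csnk1a1 and Csnk1d, passed in no comparison. Csnk1a1, higher in +R by a log2 change of 0.35 (adjusted p = 0.0553), passed in 7 of the 16 alternative settings, among them voom (0.0483), the replicate block (0.04) and the fit of the compared groups only (0.0205). Without R+LE replicate 2, Dyrk1b (-0.63, adjusted p = 0.0301) and Csnk1d (-0.42, 0.0358) passed for R+LE against -R, as did Csnk1a1 with quantile normalization (0.34, 0.0202).

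Of 8 calcineurin inhibitors, scaffolds and immunophilins, 5 were tested. Their median log2 change was 0.54 with RANKL and -0.15 for R+LE against +R, against 0.05 and -0.05 over all tested genes. With RANKL 3 rose, where 23.9% of all tested genes were higher: Cabin1, which inhibits calcineurin (log2 change 0.54, limma adjusted p = 0.00834), Chp1, a calcineurin homologue (0.72, adjusted p = 0.00123), and Ppia, the cyclophilin through which cyclosporin acts (0.70, adjusted p = 0.0111). Ppia has many processed copies in the genome, so its reads are uncertain. Cabin1 lost its call without -R replicate 2 (adjusted p = 0.07) or +R replicate 2 (0.0649), and Ppia without either -R replicate or +R replicate 1 (0.119 to 0.157) and with no filter (0.149). Of the 5, 0 passed between R+LE and +R in limma and 0 by voom, where 5.19% of all tested genes were higher and 6.86% lower, and 1, Myoz1, had an unadjusted p below 0.05. Myoz1 passed in this comparison with the replicate block (0.69, adjusted p = 0.0366) and without +R replicate 1 (0.83, 0.0403), and in +R against -R without -R replicate 2 (0.79, 0.0407). Myoz1, a calcineurin-binding protein of muscle, was at 0.291 and 0.692 RPKM in -R libraries, 1.01 and 0.734 in +R libraries, and 1.97 and 1.46 in R+LE, and it was higher in R+LE than in -R (1.18, adjusted p = 0.00122). Chp1 and Ppia were also higher in R+LE than in -R libraries, with log2 changes of 0.44 and 0.55, but Chp1 lost this call without either -R replicate or R+LE replicate 1 (adjusted p = 0.104 to 0.221) and with no filter (0.0679), and Ppia did in 7 of the 16 alternative settings, among them without any library but R+LE replicate 2 (0.0516 to 0.285). Cabin1, at a log2 change of 0.33 between R+LE and -R, passed without R+LE replicate 1 (0.50, adjusted p = 0.0253). Fkbp1a, the target of tacrolimus, was at means of 73.2, 74.3 and 71.6 RPKM and passed in no comparison.

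Of 6 genes for NFAT restraint, nuclear transport and ubiquitin ligation, 5 were tested, and 2 fell with RANKL, where 21.5% of all tested genes were lower. Their median log2 change was -0.01 with RANKL and 0.03 for R+LE against +R, against 0.05 and -0.05 over all tested genes. Homer3, which competes with calcineurin for NFAT, fell from 26.7 to 11.6 RPKM (log2 change -1.16, limma adjusted p = 7.8e-06). In R+LE it was at 16.6 RPKM, higher than in +R by 0.49 (adjusted p = 0.034), a call that was lost with any of the libraries of -R or +R or R+LE replicate 1 left out (adjusted p = 0.059 to 0.161) and in 3 more of the 16 alternative settings, and lower than in -R by a log2 change of -0.67. Cblb, a ubiquitin ligase, went from 8.57 to 5.03 RPKM with RANKL and to 3.10 with LE as well. It fell in both steps, with log2 changes of -0.71 (adjusted p = 0.0011) and -0.62 (adjusted p = 0.0119), so R+LE was further from -R than +R was. The second of these was lost without +R replicate 2 (adjusted p = 0.0869) and with no filter (0.0952). Kpnb1, Xpo1 and Cbl passed in no comparison, although Xpo1 was past the threshold against -R with median centring and quantile normalization, both for +R (adjusted p = 0.0478 and 0.0227) and for R+LE (0.0199 and 0.0105).

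**Figure D4:**
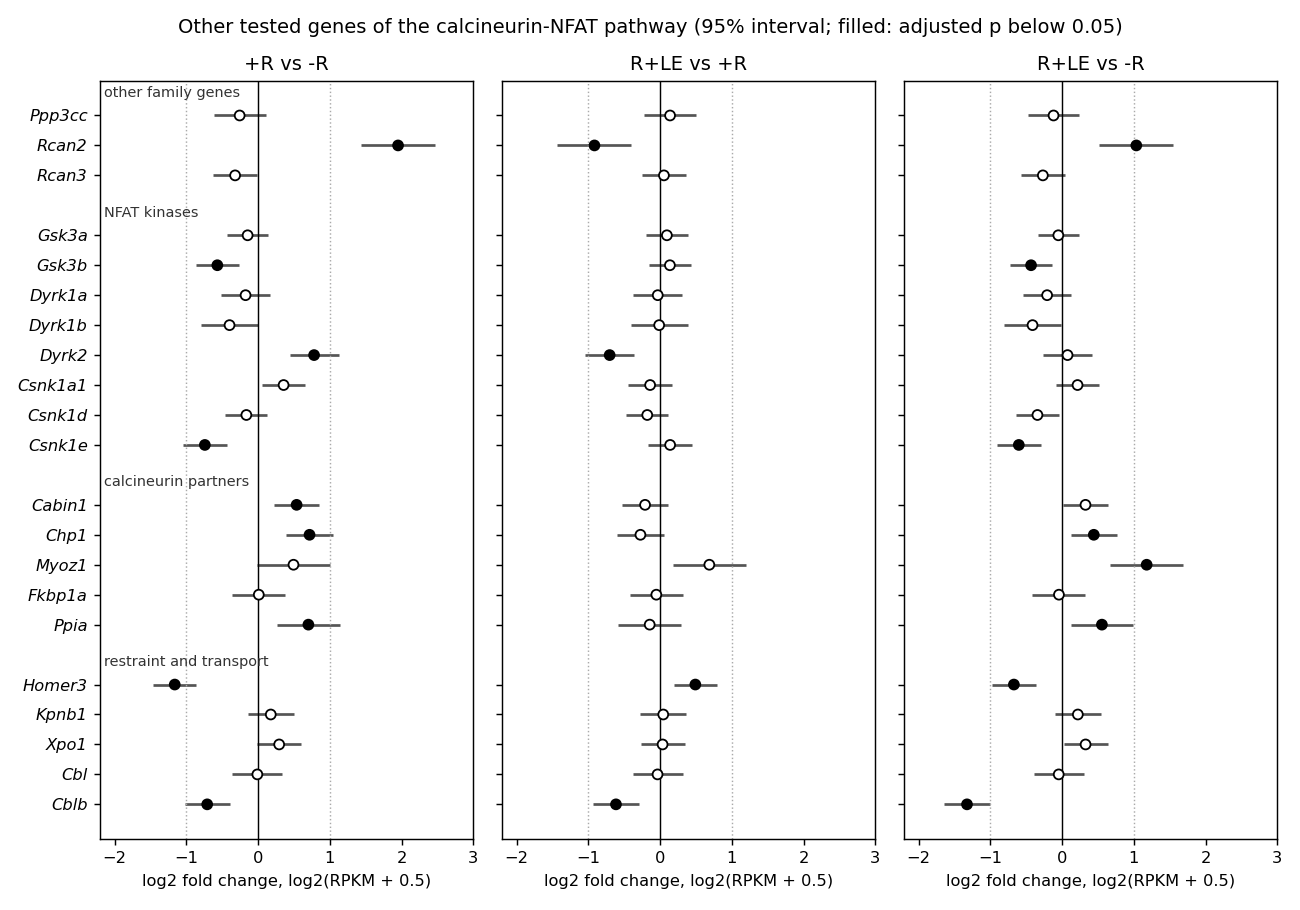
Log2 fold change on the log2(RPKM + 0.5) scale (horizontal axes) of the other tested genes of the pathway for the 3 comparisons, with bars for the 95% interval and filled points for a limma adjusted p below 0.05. Rcan2 lies furthest to the right in the first panel at 1.95 and Homer3 furthest to the left at -1.16. In the panel for R+LE against +R, the filled points are Rcan2, Dyrk2, Homer3 and Cblb. In that comparison 5.19% of all tested genes were higher and 6.86% lower.

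Of 10 genes known as NFATc1 targets in osteoclasts, among them Acp5, Ctsk, Calcr and Mmp9, all rose with RANKL and all fell with LE, each past the limma test, where 23.9% and 6.86% of all tested genes did. Their median log2 change was -2.13 for R+LE against +R, ranging from -2.75 to -1.11, where Nfatc1 itself changed by -1.31. For +R against -R the median was 5.15, or 5.78 with Oscar and Calcr, which had no read in -R libraries, set at their bounds against 3 reads per library. Against -R, 9 of the 10 were higher in R+LE, where 15.3% of all tested genes were. Clcn7, the chloride transporter of the ruffled border, was at a log2 change of -0.17 and did not pass. These genes are also markers of mature osteoclasts.

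The tested genes whose pattern over the 6 libraries was nearest to that of Nfatc1 were Tmem176a, Bhlhe40, Rab38, Acy1 and Plxna4. Likeness was measured as the root mean square difference of log2(RPKM + 0.5) after centring each gene on its own mean, and it was 0.139 to 0.185 for these 5. Bhlhe40, a transcription factor, had means of 5.85 RPKM in -R libraries, 46.4 in +R and 18.2 in R+LE. For Rcan1, the nearest were Tubb6, Fdxr and Cyp4v3 with differences of 0.0966 to 0.110, and Tubb6, a tubulin, had means of 91.4, 164 and 88.9 RPKM. For Nfat5 they were Atr, Gm5901 and 9130008F23Rik, with differences of 0.159 to 0.171. Atr, a kinase of the DNA damage response, had means of 2.43, 6.71 and 4.73 RPKM.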

How the data were processed

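The authors aligned reads to mm10 and counted them on exons with HOMER, with 1 transcript kept for each gene and without regard to strand, and deposited RPKM per the file headers, under column titles that say FPKM. The paper names TopHat as the aligner, the submitters' processing notes name HISAT2. All columns of values belonged to the 6 libraries, and 26 symbols turned into dates by a spreadsheet were restored.

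Samples were grouped by their labels. Genes that averaged 0.5 RPKM or more were tested on log2(RPKM + 0.5) with limma 3.58.1 in R 4.3.3, in 1 fit of the 3 group means with a variance trend and Benjamini-Hochberg adjustment over 11595 genes. Fold changes on this scale understate those of low genes. An exact permutation test of 2 against 2 libraries cannot give a two-sided p below 0.333 and was not used. Whole reads were recovered from RPKM and transcript length, and all checked low values came out whole within 0.02 reads beyond the rounding of the file. They covered 29390201 to 34846384 mapped reads per library, of which 74.2% to 80.7% lay on genes. The limit for a count of 0 was 3 reads and covers counting error only.

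The members and gene lists were chosen with earlier results of these data known. The genes named are the members, genes of the lists, and the 5 (Nfatc1) or 3 (other members with a 2-fold change past the test) genes of nearest pattern. Promoters came from RefSeq for GRCm38.p6 and transcripts from GENCODE, and the motifs were chosen after the data were seen. As alternatives, the pseudocount was set to 0.1 or 1, the filter was dropped or raised to 1 RPKM, the variance trend was left out, the compared groups were fitted alone, libraries were centred on their medians or quantile-normalized, replicate number entered as a block, voom was run on the recovered reads, and each library was left out in turn. They were applied to the other pathway lists once the data had been seen. Simulated data with known changes and a spread set in advance were used to test the scripts. For +R against -R, 87 of 97 genes with a simulated log2 change of 1 passed, and 95 of 96 with 2. Unchanged genes also passed: 19 in this comparison, 12 for R+LE against -R and 1 for R+LE against +R. Python 3.11.15, numpy 2.4.6, pandas 2.3.3 and matplotlib 3.10.9 handled tables and figures.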

Additional observations from a re-analysis of the deposited data

How the results depend on the processing

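With 2 libraries per group, each call rests on few values. The log2 change cannot move with the filter, the variance trend, the replicate block, or the libraries of the group not compared. In those settings only the call could differ. Over 16 alternatives, 8 members and 3 comparisons, 350 of 384 log2 changes kept their direction and their side of the threshold, 13 lost a call, 7 gained one and 14 changed sign. Leaving out each library in turn gave 3 to 5 members past the test for +R against -R (4 with all libraries), 2 to 3 for R+LE against +R (3) and 1 to 3 for R+LE against -R (2). With no filter, which tests more genes, 1 member passed for R+LE against -R.

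None of the changes that turned sign had passed the test. For R+LE against -R, Rcan1 (-0.02) was at 0.037 with median centring and at 0.045 with quantile normalization, and Ppp3ca (-0.10) was at 0.011 with quantile normalization. With a library left out, the log2 changes for +R against -R ran from -0.063 to 0.24 for Nfatc3. For R+LE against +R they ran from -0.19 to 0.055 for Ppp3r1, from -0.037 to 0.12 for Nfatc3, from -0.55 to 0.0025 for Nfat5 and from -0.026 to 0.22 for Ppp3ca. For R+LE against -R they ran from -0.021 to 0.28 for Nfatc3, from -0.12 to 0.082 for Rcan1 and from -0.22 to 0.026 for Ppp3ca. The cause was not tested.

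The labels give the groups the same replicate numbers, but nothing says what a number shares. Replicate differences correlated across genes at -0.046 between -R and +R, 0.107 between -R and R+LE, and 0.249 between +R and R+LE. The share of reads on genes was lower in replicate 2 than in replicate 1 in +R (80.7% and 76.3%) and R+LE (80.5% and 74.2%). In -R it was 77.8% and 78.8%. Whether +R and R+LE libraries of a number shared a shift was not tested, and the numbers are not shown to pair the libraries. With the replicate block, 5, 3 and 2 members passed in the 3 comparisons, against 4, 3 and 2 without it. Calls over all tested genes rose with the block as well. For +R against -R they went from 2772 to 3059 higher and from 2490 to 2687 lower.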
